A study of Mus musculus with 12 samples.

Results

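The genes described here encode splicing factors and neuronal RNA-binding proteins of the mouse. They are the protein-coding genes whose symbols begin with Snrp, Sf3a, Sf3b, U2af, Hnrnp, Srsf, Ptbp, Elavl, Rbfox, Nova, Celf, Mbnl or Khdrbs, with pseudogenes left out. The rule gave 79 genes of the 21474 protein-coding genes and 43346 annotated genes in the tables. Their RNA was measured in 12 RNA-seq libraries from 1 mouse, a male aged 14 months of the strain B6CASTF1/J, a hybrid of Castaneus and C57Bl6. Purkinje cells were cut out of the tissue, 13 of them were lysed as 1 pool, and each library received 1 cell-equivalent of that pool with spike-in RNA. The libraries were made by Smart-seq, a full-length cDNA method for very small inputs, from total RNA longer than 200 bases. All 12 are technical replicates of 1 group, numbered 1 to 6 and 8 to 13, with no treatment and no control, so genes were compared with each other within libraries. Every p-value measures the technical spread between splits of 1 pool and nothing about other cells or animals.

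Introns are removed by the spliceosome, whose small nuclear ribonucleoproteins carry a shared ring of Sm proteins and particle-specific proteins. SR proteins and hnRNPs bind the transcript and decide, often against each other, which splice sites are used. Neurons add further regulators, among them the ELAVL, RBFOX, NOVA, CELF, MBNL and PTBP proteins, and the switch from PTBP1 to PTBP2 is a classic step of neuronal differentiation. Many of these genes also regulate themselves by splicing in an exon with an early stop codon, which sends the transcript to nonsense-mediated decay.

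The annotated genes of a library held between 13694551 and 24108916 estimated counts, and the spike-ins took between 4.78% and 14.6% of all counts. The 8 Purkinje cell markers examined (Pcp2, Pcp4, Calb1, Pvalb, Itpr1, Car8, Gng13 and Rora) all reached 50 counts in every library, and their summed level was 20462 to 35845 TPM (a share of all transcripts, corrected for transcript length). Markers of other cells were present as well. The 8 markers of Bergmann glia and astrocytes summed to 1943 to 4412 TPM and the 8 of granule cells to 76.8 to 809.5 TPM. Those of oligodendrocytes summed to 91.3 to 378.5 TPM, those of interneurons to 1.48 to 105.9 TPM, those of microglia to 0 to 445.8 TPM and those of endothelial and mural cells to 0 to 290.1 TPM. How much of any level below came from those cells was not tested, and in pooled cells a smaller number of expressing cells and less RNA per cell cannot be told apart.

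The splicing genes as a group were abundant. Together they held 5579.6 ± 664.3 TPM (SD, n = 12, as for every ± below), from 4285 TPM in library 1 to 6591 in library 9. The median of their 79 mean levels was 41.1 TPM, against 0.796 TPM for all protein-coding genes. At a mean of at least 10 TPM there were 63 of the 79 genes, or 79.7%, and 28.0% of all protein-coding genes. Only Celf5 and Mbnl3 had no count in any library. With 0 counts, the limit of 3 counts over all 12 libraries is a CPM (share of the gene counts, scaled as TPM is) of 0.0137 for each, which covers counting error only.

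Levels in single libraries were far less even than these means. At least 50 counts in every library were found for 25 of the 79 genes, or 31.6%, where the background over all protein-coding genes is 6.98%. Among genes with a mean of at least 10 TPM the shares were 39.7% of 63 genes and 24.6% of all 6013 genes, which were not matched for abundance within that range. The 25 were 11 of the 20 Hnrnp genes, 3 of the 12 Snrp genes, 3 of the 9 Sf3 genes, 2 of the 11 Srsf genes, 2 Celf genes, 2 Mbnl genes, 1 Elavl gene and 1 Rbfox gene. No Ptbp, Nova, Khdrbs or U2af gene was among them. Lowering the requirement to 1 count gave 45 genes.

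The Sm ring and the proteins bound to the particles were led by Snrpn. Snrpn encodes SmN, the form of the Sm ring's B subunit that predominates in neurons, and Snrpb encodes the form used in most cells. Snrpn is an imprinted gene on chromosome 7, 59982495 to 60140219 (mm10, minus strand). Its level was 478 TPM in the lowest library, 967.7 at the median and 1912 in the highest, with a mean of 1025 ± 380.9 TPM. Its lowest library stood just under the highest value of Snrpe, the next gene in the order (492.5 TPM). Snrpn held 18.3 ± 6.16% of the summed level of all 79 genes, and without it the sum was 4555 ± 627.7 TPM.

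Snrpb (chromosome 2, 130171414 to 130179403) was lower than Snrpn in all 12 libraries. It stood at 0.08 TPM in its lowest library, 80.2 at the median and 430.1 in the highest, with a mean of 98.9 ± 121.4 TPM. Its values fell into separate ranges: libraries 2, 5, 8 and 13 lay between 0.08 and 1.02 TPM, and the other 8 between 60.8 and 430.1 TPM. The log2 ratio of Snrpn to Snrpb, on TPM + 1 as for all ratios below, was 5.16 ± 3.64 and ranged from 1.16 to 10.73. It passed the exact sign-flip permutation test over the 12 libraries (two-sided p = 0.000488, the smallest this design can give, adjusted p = 0.00251 over 36 gene pairs). The coding sequences are close, with 80.5% of 693 aligned bases identical and a longest identical run of 32 bases, so how well reads of one were kept from the other depends on the quantification. The first 90 coding bases, from the GENCODE M21 transcripts on GRCm38, show how scattered the differences are, with the 13 differing bases in capitals.
Snrpn-201: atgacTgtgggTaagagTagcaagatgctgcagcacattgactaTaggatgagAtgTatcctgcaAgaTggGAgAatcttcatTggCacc
Snrpb-201: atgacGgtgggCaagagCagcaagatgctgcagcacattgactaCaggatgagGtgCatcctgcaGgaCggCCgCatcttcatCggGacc
Snurf, a gene read from the same bicistronic transcript, shares 216 exon bases with Snrpn and was listed at 492.1 ± 266.4 TPM. Gm38393, also on the same strand, shares 589 exon bases with Snrpn and was listed at 14.0 ± 15.8 TPM. The 2 annotated Snrpn transcripts were both coding, and Snrpn-201 carried 1004 of the 1025 TPM and led in all 12 libraries.

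**Figure D1:**
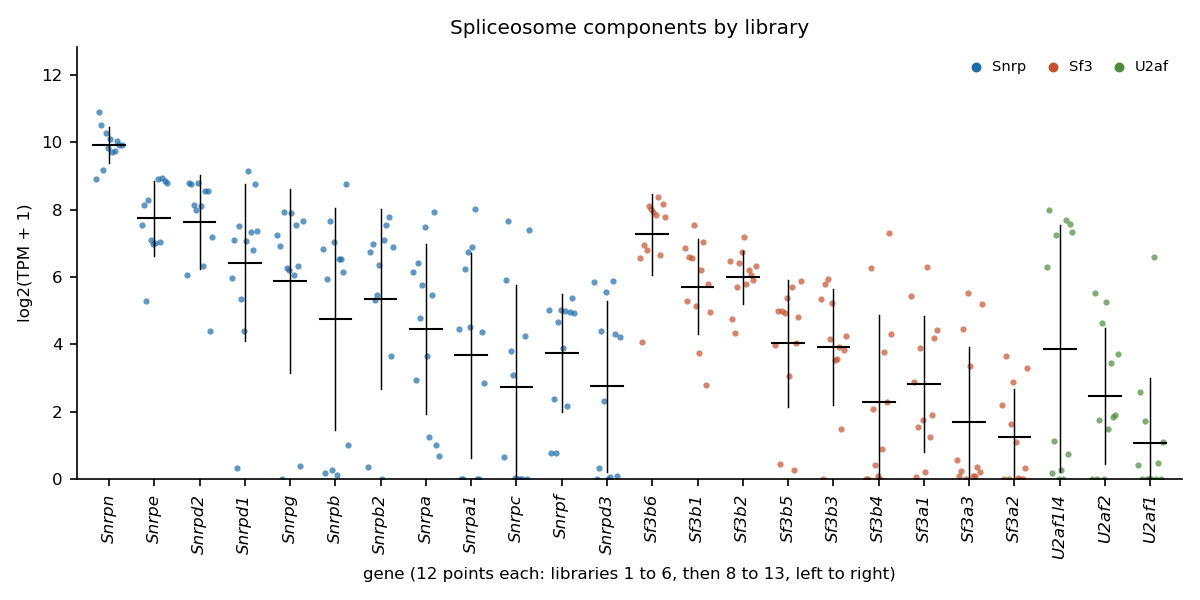
Level of the 24 spliceosome component genes (Snrp, Sf3 and U2af) on a log2(TPM + 1) axis, with 12 points a gene for the 12 libraries, a bar at the mean and a vertical line of 1 SD (stopped at 0). Snrpn is high in every library, while Snrpb and U2af1l4 split into libraries near 0 and libraries with high values.

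The other Sm ring genes followed. Snrpe (SmE) had 266.9 ± 165.2 TPM, with 37.6 TPM in its lowest library, 232.7 at the median and 492.5 in its highest. Snrpert, a processed pseudogene of Snrpe that was not counted among the members, was listed at 42.0 ± 24.5 TPM, so reads may have been divided between them. Snrpd2 (SmD2) had 265.3 ± 154.8 TPM, a mean within 1 SD of that of Snrpe. Snrpd1 (SmD1) had 166.6 ± 167.5 TPM, Snrpg (SmG) 118.9 ± 84.0, Snrpf (SmF) 20.1 ± 14.5 and Snrpd3 (SmD3) 18.4 ± 22.7 TPM. The last 2 were the lowest of the 12 Snrp genes although the ring holds all of these proteins together. Ccdc38, which lies opposite 65.9% of the exon bases of Snrpf, was listed at 0.159 ± 0.529 TPM.

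Proteins of single particles were detected less evenly. Snrpa and Snrpc belong to the U1 particle, which reads the 5′ splice site, and Snrpa1 and Snrpb2 to the U2 particle, which binds the branch point. Snrpa had 59.7 ± 76.6 TPM and Snrpb2 89.0 ± 72.4 TPM. The 2 were not separated by the test (log2 ratio -0.89 ± 3.54, adjusted p = 0.499, exact permutation test), and Snrpa was higher in 5 libraries. Snrpa1 had 52.2 ± 77.9 TPM with counts in 8 libraries. Snrpc had 38.9 ± 70.4 TPM, a median of 4.08 and a range from 0 to 202.4 TPM.

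The SF3 proteins form the part of the U2 particle that holds the branch site. Sf3b6, the subunit that touches the branch-point adenosine, was the highest of the 9 genes at 189.4 ± 96.8 TPM, with 15.7 TPM in library 2 and 326.7 in library 10. Sf3b1, the scaffold of the complex, had 72.5 ± 54.0 TPM and Sf3b2 70.7 ± 34.0 TPM, and these 3 alone reached 50 counts in every library. Sf3b5 followed at 25.4 ± 18.5 and Sf3b3 at 23.1 ± 20.0 TPM. The lowest were Sf3a3 at 9.33 ± 15.8 and Sf3a2 at 2.84 ± 4.03 TPM, members of the SF3A complex that joins the particle as a unit of 3 proteins with Sf3a1 (15.5 ± 23.0 TPM).

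The U2AF genes encode the proteins that mark the 3′ splice site. U2af2, the large subunit, which binds the polypyrimidine tract, had 11.4 ± 15.5 TPM, and U2af1, the small subunit that reads the AG, had 8.76 ± 27.5 TPM, of which most came from library 9 with 95.9 TPM. U2af1l4, which encodes a relative of the small subunit, had 86.3 ± 98.1 TPM. It lay at or below 1.2 TPM in 6 libraries and between 78.0 and 251.7 TPM in the other 6. It was higher than U2af1 in 9 libraries and lower in 2, and the difference did not pass (log2 ratio of U2af1 to U2af1l4 -2.79 ± 4.49, adjusted p = 0.124, exact permutation test). U2af1l4 shares 119 exon bases with Psenen on the opposite strand, listed at 233.2 ± 143.9 TPM, and with no strand stated for the libraries reads from the 2 cannot be told apart there. U2af2 and U2af1 were not separated either (1.39 ± 2.78, adjusted p = 0.189, exact permutation test). Library 9 held the ratios furthest against both means (6.60 and -5.10). Without it both differences passed, with -3.65 for U2af1 to U2af1l4 (adjusted p = 0.0374) and 1.98 for U2af2 to U2af1 (adjusted p = 0.0301) in the same exact test.

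The hnRNP genes were the most evenly detected large family. All 20 had a mean of at least 10 TPM, and their sum was 1544 ± 312.8 TPM. Hnrnpk, a KH-domain protein that binds C-rich RNA, led with 260.2 ± 177.4 TPM (39.2 in the lowest library, 231.2 at the median, 537.3 in the highest). Hnrnpa2b1 and Hnrnpa1, which oppose SR proteins at many exons, had 147.5 ± 102.5 and 89.6 ± 62.1 TPM. Hnrnpl, which binds CA repeats, had 144.8 ± 52.2 TPM and Hnrnph1, which binds G runs, 138.0 ± 115.0 TPM. The lowest were Hnrnpul1 at 13.6 ± 12.2 and Hnrnpul2 at 10.3 ± 11.1 TPM.

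Among related hnRNPs 2 of 8 pairs differed. Hnrnpl exceeded its paralog Hnrnpll (18.5 ± 19.7 TPM) in 12 of 12 libraries, by a log2 ratio of 3.66 ± 1.96 (adjusted p = 0.00251, exact permutation test). In coding transcripts alone this call was lost and the ratio was -0.39 (adjusted p = 0.46, exact permutation test). Hnrnph1 exceeded Hnrnph3 (19.8 ± 34.4 TPM) in 10 of 12, with a ratio of 3.86 ± 3.98 (adjusted p = 0.0239, exact permutation test). The latter ratio was 6.73 in libraries 1 to 6 and 0.99 in libraries 8 to 13. Hnrnph1 lay between 0.08 and 7.42 TPM in libraries 11, 12 and 13 and at or above 70.8 TPM in the other 9. Hnrnpa2b1 was higher than Hnrnpa1 in 10 of 12 libraries but did not pass (0.65 ± 0.89, adjusted p = 0.0631, exact permutation test), and without library 10 it did (0.85, adjusted p = 0.00781). The same gene set against Hnrnpa3 (84.5 ± 80.3 TPM) gave 1.02 ± 2.42 (adjusted p = 0.274), and 1.45 with an adjusted p of 0.0463 without library 10 in the same exact test.

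The remaining hnRNP comparisons did not pass. Hnrnpdl (76.6 ± 32.8 TPM) and Hnrnpd (56.2 ± 52.3 TPM), which bind AU-rich RNA, gave 1.62 ± 2.57 (adjusted p = 0.101, exact permutation test). Hnrnph1 and the X-linked Hnrnph2 (56.8 ± 35.3 TPM), whose coding sequences are 85.1% identical, gave 0.41 ± 2.47 (adjusted p = 0.643, exact permutation test). Hnrnpul2 against Hnrnpul1 gave -0.84 ± 2.69 (adjusted p = 0.396, exact permutation test). Hnrnpr (58.9 ± 71.0 TPM) against Syncrip, its paralog outside the symbol rule (13.7 ± 18.0 TPM), gave 1.61 ± 4.59 (adjusted p = 0.327, exact permutation test). Hnrnpu and Cox20 overlap on opposite strands over 804 exon bases and Hnrnpm and March2 on the same strand over 1169, so the levels of Hnrnpu (53.8 ± 37.2 TPM) and Hnrnpm (44.9 ± 30.5 TPM) are uncertain to that extent.

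**Figure D2:**
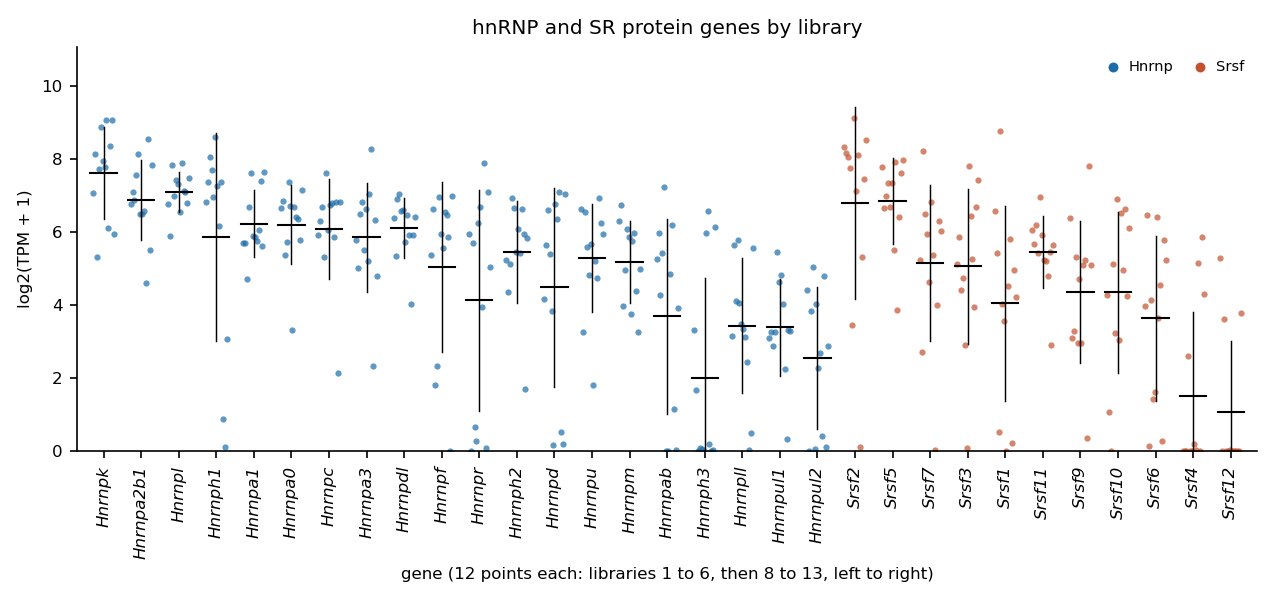
Level of the 20 Hnrnp and 11 Srsf genes on a log2(TPM + 1) axis, with 12 points a gene for the 12 libraries, a bar at the mean and a vertical line of 1 SD (stopped at 0). Hnrnpk is highest by mean TPM, and Srsf4, Srsf12 and Hnrnph3 are near 0 in many libraries.

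The SR protein genes, whose products bind exonic enhancers through RNA recognition motifs and recruit the spliceosome through arginine-serine repeats, summed to 732.3 ± 297.0 TPM. Srsf2 led with 220.9 ± 162.6 TPM. It lay at 0.09 TPM in library 10, at 240.3 at the median and at 561.3 in library 6. Mettl23 and Mfsd11 overlap Srsf2 on the opposite strand and were listed at 41.8 ± 100.7 and 9.60 ± 23.1 TPM. Srsf5 had 141.8 ± 76.4 TPM, Srsf7 68.7 ± 80.5, Srsf3 64.7 ± 69.5 and Srsf1 60.1 ± 120.6 TPM. For Srsf1 library 4 alone gave 432.9 TPM, against 95.0 or less in the other 11. Srsf4 (9.63 ± 18.4 TPM) and Srsf12 (5.20 ± 11.4 TPM) were the lowest, and both had medians at or below 0.015 TPM.

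Within the SR family 3 of 5 pairs differed. Srsf5 exceeded Srsf6 (27.6 ± 31.4 TPM) in 10 of 12 libraries by a log2 ratio of 3.20 ± 2.64 (adjusted p = 0.0123, exact permutation test). Srsf11 (50.9 ± 28.8 TPM) exceeded Srsf4 in 10 of 12 by 3.94 ± 3.08 (adjusted p = 0.0128, exact permutation test). Srsf10 (41.1 ± 41.7 TPM), a splicing repressor when dephosphorylated, exceeded Srsf12 in 10 of 12 by 3.28 ± 3.21 (adjusted p = 0.0230, exact permutation test). Srsf1 and Srsf9 (41.8 ± 61.1 TPM) gave -0.31 ± 2.02 (adjusted p = 0.654) and Srsf3 and Srsf7 gave -0.09 ± 2.84 (adjusted p = 0.914) in the same exact permutation test. In coding transcripts alone Srsf1 had 7.95 ± 10.9 TPM and Srsf9 24.0 ± 17.2, a log2 ratio of -2.15 that passed (adjusted p = 0.00251, exact permutation test).

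Among the neuronal and tissue-regulated families, Celf2, Mbnl2 and Mbnl1 had the highest mean levels, and Ptbp2, Elavl3 and Celf2 each exceeded a relative in all 12 libraries. Ptbp2, the polypyrimidine tract binding protein of neurons, had 28.3 ± 27.1 TPM, with 0.17 TPM in library 3, 22.4 at the median and 82.9 in library 5. Ptbp1, the form of non-neuronal cells, had 3.96 ± 9.38 TPM, all but traces of it in libraries 4 and 5 (20.0 and 27.5 TPM). Ptbp2 exceeded Ptbp1 in 12 of 12 libraries, by a log2 ratio of 3.09 ± 2.02 (adjusted p = 0.00251, exact permutation test). In libraries 3 and 11 Ptbp2 itself was near 0 (0.17 and 0.21 TPM) beside a Ptbp1 of 0, with ratios of 0.23 and 0.28. With values under 50 counts set to 0 the pair still passed (adjusted p = 0.00879, exact permutation test). In annotated coding transcripts Ptbp1 stood at 0.00167 ± 0.00577 TPM, since nearly all of its TPM was assigned to Ptbp1-213, a retained-intron transcript. Gm17134 and Plppr3 are among the genes opposite Ptbp1, and Gm17134 was listed at 4.81 ± 11.4 TPM. Ptbp3 had 2.48 ± 5.35 TPM and was lower than Ptbp2 in 10 of 12 libraries (2.95 ± 3.16, adjusted p = 0.0293, exact permutation test). Leaving out library 4, 5, 9 or 12 put that adjusted p between 0.0517 and 0.0586.

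The ELAVL proteins bind U-rich and AU-rich RNA. Elavl3, 1 of the 3 neuronal members, had 24.9 ± 20.7 TPM and counts of at least 50 in every library, from 2.00 TPM in library 3 through a median of 19.4 to 74.3 TPM in library 11. It exceeded Elavl2 in 12 of 12 libraries (log2 ratio 3.95 ± 1.71, adjusted p = 0.00251, exact permutation test). It also exceeded the ubiquitous Elavl1 (6.94 ± 8.08 TPM) in 10 of 12 libraries (2.07 ± 1.94, adjusted p = 0.0176, exact permutation test). Elavl2 had 0.995 ± 3.44 TPM, which came from library 13 with 11.9 TPM. It was lower than Elavl1 in 10 libraries (-1.88 ± 2.30, adjusted p = 0.0461, exact permutation test), a call that did not hold without library 1, 2, 4, 5, 6, 8, 9, 11 or 12 (adjusted p from 0.0538 to 0.0869). Elavl4 had 30.6 ± 76.1 TPM, of which library 2 gave 266.6, and its median was 4.38 TPM. Elavl4 was separated neither from Elavl1 (0.40 ± 3.41, adjusted p = 0.718) nor from Elavl3 (1.67 ± 2.86 for Elavl3 over Elavl4, adjusted p = 0.124) in the exact permutation test. Without library 2 the ratio of Elavl3 to Elavl4 was 2.15 (adjusted p = 0.0445, exact permutation test).

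The RBFOX proteins bind GCATG beside regulated exons, and Rbfox1 and Rbfox2 are known to act in Purkinje cells. Rbfox1 had 47.0 ± 53.4 TPM (0.1 in the lowest library, 24.3 at the median, 171.7 in the highest), Rbfox2 29.1 ± 19.8 TPM (6.03, 21.7 and 75.0) and Rbfox3 27.4 ± 30.2 TPM (0, 15.8 and 89.0). None of the 3 pairs passed, with mean log2 ratios of -0.28 for Rbfox1 to Rbfox2, -0.66 for Rbfox3 to Rbfox1 and -0.94 for Rbfox3 to Rbfox2 (adjusted p = 0.718, 0.556 and 0.278, exact permutation test). Rbfox3 encodes NeuN, the common marker of neuronal nuclei, which antibodies find in granule cells and not in Purkinje cells. Beside it, all 8 granule cell markers had counts, Gabra6 at 99.2 ± 66.4 TPM among them. In the 3 libraries with the most Rbfox3, libraries 13, 4 and 2 (89.0, 78.4 and 47.1 TPM), the granule markers summed to 573.3, 638.2 and 485.5 TPM. In the 3 with the least, libraries 10, 12 and 8 (0, 0.03 and 1.4 TPM), they summed to 677.2, 243.9 and 134.6 TPM. Library 11, with the lowest sum of 76.8 TPM, had 36.6 TPM of Rbfox3. The part of granule cell RNA in the Rbfox3 level was not tested.

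The CELF proteins bind GU-rich RNA. Celf2 was the highest at 95.3 ± 62.2 TPM, with 49.1 TPM in its lowest library, 75.1 at the median and 280.0 in its highest. It exceeded Celf1 (22.3 ± 14.2 TPM) in 12 of 12 libraries by a log2 ratio of 2.16 ± 1.23 (adjusted p = 0.00251, exact permutation test). Celf4 (17.5 ± 14.9 TPM) was lower than Celf2 in 12 of 12, with a log2 ratio of -2.86 ± 1.60 (adjusted p = 0.00251, exact permutation test). Celf1 and Celf4 were not separated (-0.70 ± 2.39 for Celf4 to Celf1, adjusted p = 0.441, exact permutation test). The others were hardly seen. Celf6 had 2.54 ± 8.68 TPM, nearly all of it in library 9, Celf3 0.188 ± 0.643 TPM, nearly all in library 1, and Celf5 none, and Celf5 against Celf3 was left untested for that reason.

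The MBNL proteins bind short motifs with a GC core and shift exons to their adult forms. Mbnl2 had 87.9 ± 35.5 TPM (15.1 in the lowest library, 102.5 at the median, 126.8 in the highest) and Mbnl1 79.4 ± 44.9 TPM (0.67, 97.2 and 136.6). They were not separated (0.52 ± 1.42, higher for Mbnl2 in 5 of 12 libraries, adjusted p = 0.327, exact permutation test). In coding transcripts alone Mbnl2 stayed at 87.9 ± 35.5 TPM while Mbnl1 was 25.2 ± 21.2 TPM, and that ratio passed (2.20, adjusted p = 0.00352, exact permutation test). Mbnl3, on the X chromosome, had no count. Mbnl1 therefore exceeded it in 12 of 12 libraries (adjusted p = 0.00251, exact permutation test), with no fold given because the ratio then depends on the pseudocount. With Mbnl3 at 0 and Mbnl1 above 0 in every library, the test could only return its smallest p, so it adds nothing to the counts.

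NOVA and STAR family genes were low. Nova1 had 6.53 ± 6.07 TPM and Nova2, which dominates in cortex, 2.31 ± 4.58 TPM, and the 2 were not separated (1.43 ± 2.64, adjusted p = 0.153, exact permutation test). Without library 10, where Nova2 had 14.9 TPM, the ratio was 1.92 (adjusted p = 0.0434, exact permutation test). Of the STAR proteins, Khdrbs1 (Sam68) had 12.7 ± 10.8 TPM and Khdrbs2 (SLM1) 16.7 ± 24.7 TPM, which were not separated (-0.56 ± 2.68 for Khdrbs2 to Khdrbs1, adjusted p = 0.556, exact permutation test). Khdrbs3 (SLM2), a regulator of neurexin splicing, stood at 0.0267 ± 0.0834 TPM with counts in 2 libraries. It was lower than Khdrbs1 in 11 libraries (-3.23 ± 1.45, adjusted p = 0.00439) and lower than Khdrbs2 in 10 (-2.67 ± 2.30, adjusted p = 0.00781) in the exact permutation test.

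**Figure D3:**
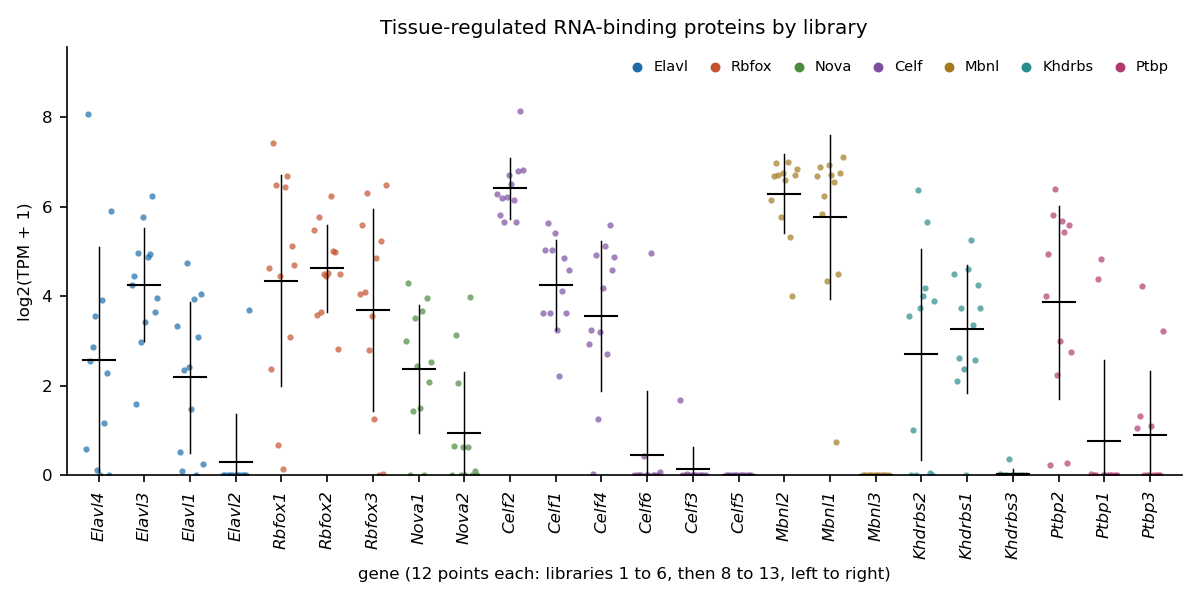
Level of the 24 Elavl, Rbfox, Nova, Celf, Mbnl, Khdrbs and Ptbp genes on a log2(TPM + 1) axis, with 12 points a gene for the 12 libraries, a bar at the mean and a vertical line of 1 SD (stopped at 0). Celf2, Mbnl2 and Mbnl1 lead, and Celf5, Mbnl3 and Khdrbs3 lie on or next to the axis.

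Over all families 36 pairs were tested and 16 differed. In 12 of the 16 the gene written first was higher and in 4 the one written second, and 20 pairs did not pass. The pairs and their order were chosen by hand, so that split has no meaning of its own. No share over other gene pairs was computed to set beside the 16. They include Mbnl1 over Mbnl3, where a gene without a count fixed the outcome.  In 6 of the 16 the direction was the same in all 12 libraries without a gene at 0 throughout: Ptbp2 over Ptbp1, Elavl3 over Elavl2, Celf2 over Celf1, Celf2 over Celf4, Snrpn over Snrpb and Hnrnpl over Hnrnpll, the last not in coding transcripts. For the first, Ptbp2 reached 50 counts in 10 libraries. Where a gene was at 0 in most libraries, the size of the ratio depended on the pseudocount. At pseudocounts of 0.1 and 10, Ptbp2 to Ptbp1 gave 5.43 and 1.26, and Elavl3 to Elavl2 6.88 and 1.50. Khdrbs3 to Khdrbs1 gave -5.98 and -1.04, and all of these passed the exact permutation test. A pair that did not pass is not shown to be equal, since the SD of its ratio was 0.887 at the least and 4.59 at the most.

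**Figure D4:**
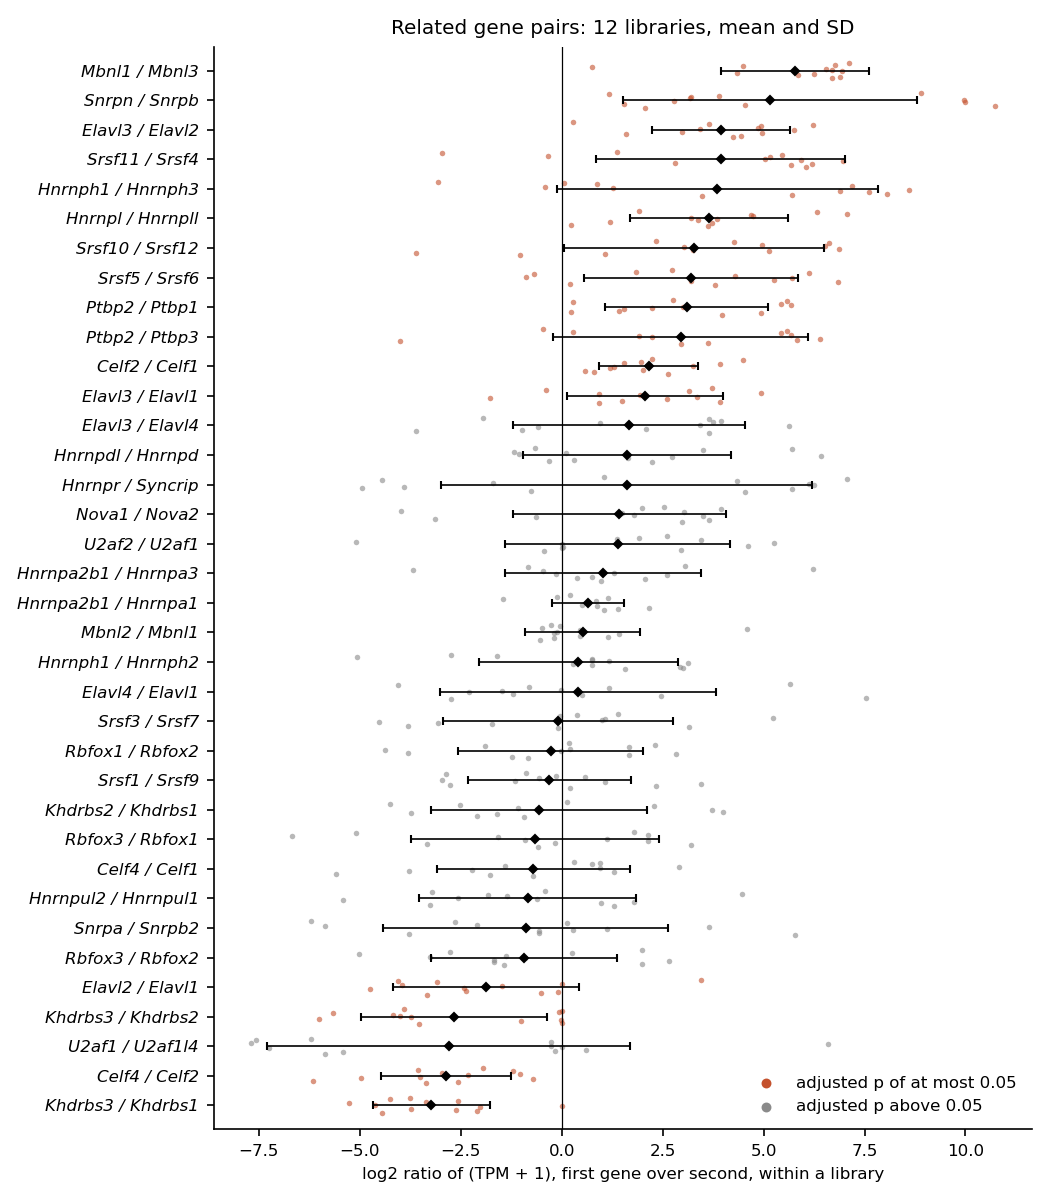
Log2 ratio of TPM + 1 for 36 pairs of related genes, first over second, with a point for each of the 12 libraries and a diamond with bar for the mean and SD. The 16 pairs that passed the exact permutation test are in orange and the 20 that did not are in grey.

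Part of the RNA of these genes was assigned to transcripts annotated as not coding, on average as large a part as in other genes. The tables hold 500 transcripts of the 79 genes: 277 are annotated as coding, 48 as targets of nonsense-mediated decay, 111 as retained introns and 62 as processed transcripts, and 2 could not be matched. At a mean of at least 10 TPM and with at least 2 transcripts there were 50 genes. In 13 of them (26% against a background of 18.3% of 4715 genes) the leading transcript, the one with the highest TPM in a library, was not a coding one in 6 or more libraries. The mean share of a gene's TPM in coding transcripts had a median of 81.3% over the 50 genes and 88.4% over all 4715, but its mean was the same, 74.4% in both, and the lower quartiles were 56.1% and 56.5%. In single libraries the median gene of the 50 had 93.5% to 100% of its TPM in coding transcripts, and that of all 4715 had 100% in each. By estimated counts, which weight long transcripts more, the medians were 87.2% and 91.9%.

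The gene with the smallest coding share was Hnrnpl. Only 3.39 ± 3.45% of its TPM was in coding transcripts (9.06% by counts), 86.8 ± 19.2% in retained-intron transcripts and 9.81 ± 19.3% in decay targets. Hnrnpl-210, a retained-intron transcript of 672 bases, had 125.4 ± 56.6 TPM, lay between 49.9 and 219.0 TPM and led in 11 of 12 libraries. The coding transcript Hnrnpl-201, of 2142 bases, had 3.66 ± 2.69 TPM. Hnrnpl-213, a decay target, was assigned 13.9 ± 26.2 TPM and was above 0 in 7 libraries, with 56.0 TPM in library 10 and 80.2 in library 11.

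Decay-targeted transcripts were seen in several families. Of the 50 genes 21 have an annotated transcript of this class (1371 of all 4715). In 11 the share of TPM in it, averaged over libraries, was over 10%, or 22% against a background of 12.1%. Libraries count equally in this average, also those where a gene was near 0. The 11 were 4 Srsf genes, 4 Hnrnp genes (Hnrnpd, Hnrnpll, Hnrnpdl and Hnrnph3, with 16.5% to 24.6%), Snrpa1, Sf3b1 and U2af1l4. U2af1l4 averaged 29.7 ± 42.4% over the 10 libraries with its TPM. Yet its highest decay target, U2af1l4-222, had 1.82 ± 6.29 TPM of the gene's 86.3 ± 98.1 TPM. The mean share in this class was 7.05% over the 50 genes and 4.74% over all 4715. For Srsf1 it was 53.3 ± 35.4%, with Srsf1-204 (896 bases) leading in 6 libraries at 27.2 ± 48.3 TPM. The coding Srsf1-201 (2948 bases) had 3.96 ± 7.01 TPM and the coding Srsf1-205 (5362 bases) 4.00 ± 6.60 TPM. TPM divides by length, and the coding share of Srsf1 was 27.7% by TPM and 47.2% by estimated counts. The share in decay targets was 27.4 ± 38.7% for Srsf3 and 26.6 ± 35.8% for Srsf2. For Srsf6 that share was 17.5 ± 33.2%, and Srsf6-201 had 71.9 TPM in library 2 and at most 7.08 TPM in the others. Srsf3-201 had 15.8 ± 40.5 TPM and was above 0 in 6 libraries, with 141.9 TPM in library 8. The exons below carry the early stop, which is in capitals at the end of each sequence. They are shown from the first base of the exon to the stop, on the plus strand, from GENCODE M21 on GRCm38. None overlaps an exon of the coding transcript it was compared with (Srsf3-202, Srsf6-203 and Hnrnpl-201). The first is at chr17:29039454-29039487, the next at chr2:162932815-162932966 and the last at chr7:28817335-28817393.
Srsf3-201: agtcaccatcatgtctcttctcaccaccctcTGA
Srsf6-201: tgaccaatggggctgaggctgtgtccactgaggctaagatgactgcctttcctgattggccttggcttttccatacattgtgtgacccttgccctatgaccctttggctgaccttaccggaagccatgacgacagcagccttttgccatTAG
Hnrnpl-213: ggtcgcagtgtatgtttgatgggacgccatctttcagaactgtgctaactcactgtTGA
In the order printed, the stop lies 548, 534 and 842 bases before the last exon junction of the transcript. For Srsf3-201 the tables give a length of 1919 bases where release M21 has 2594, so its model differs between the releases.

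Snrpa1 showed the opposite arrangement, a decay target made by skipping. Snrpa1-201, with 27.8 ± 51.2 TPM, lacks an exon of 80 bases that the coding Snrpa1-206 (23.3 ± 42.4 TPM) has, and its stop codon TAA begins at base 4 of the exon that follows, 164 bases before the last junction. Snrpa1-201 led in 6 of the 8 libraries with Snrpa1 TPM. The share of the gene's TPM in decay targets averaged 72.2 ± 41.8% over those 8 libraries, each counted equally. By mean TPM the 2 transcripts were closer, with 27.8 for Snrpa1-201 and 23.3 for Snrpa1-206 of 52.2 for the gene. In library 5 all but a trace was in Snrpa1-206 (105.1 of 106.2 TPM) and in library 4 nearly all was in Snrpa1-201 (72.3 of 74.4 TPM). The skipped exon, at chr7:66070119-66070198 on GRCm38, plus strand, is shown in full because its length is not a multiple of 3.
Snrpa1-206 exon 6: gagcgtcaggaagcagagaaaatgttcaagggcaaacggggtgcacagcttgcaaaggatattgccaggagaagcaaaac

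Retained-intron and processed transcripts led in other genes. Snrpb2-203 (594 bases, 64.1 ± 54.9 TPM) led in 9 libraries, Hnrnpk-217 (874 bases, 112.1 ± 105.2 TPM) and Snrpa-205 (509 bases, 37.4 ± 64.2 TPM) in 7 each, Hnrnpa3-205 (596 bases, 38.8 ± 53.5 TPM) in 6 and Hnrnph3-205 (651 bases, 16.2 ± 30.9 TPM) in 5. Hnrnph1-212, a processed transcript of 816 bases, had 80.6 ± 75.6 TPM. It lay between 15.7 and 212.9 TPM in libraries 1 to 6, 8 and 9 and at 0 in libraries 10 to 13. Sf3b1, Mbnl1, Srsf3 and Hnrnpdl had leading transcripts of several classes, and the coding share of the 4 lay between 35.1% for Sf3b1 and 60.4% for Hnrnpdl. In coding transcripts alone Hnrnph1 had 29.9 ± 40.3 TPM in place of 138.0 and was lower than Hnrnph2 (log2 ratio -1.51, adjusted p = 0.0269, exact permutation test). Several of these leading models are short, and TPM divides by length, so a few reads in a short model weigh more than the same reads in a long one.

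**Figure D5:**
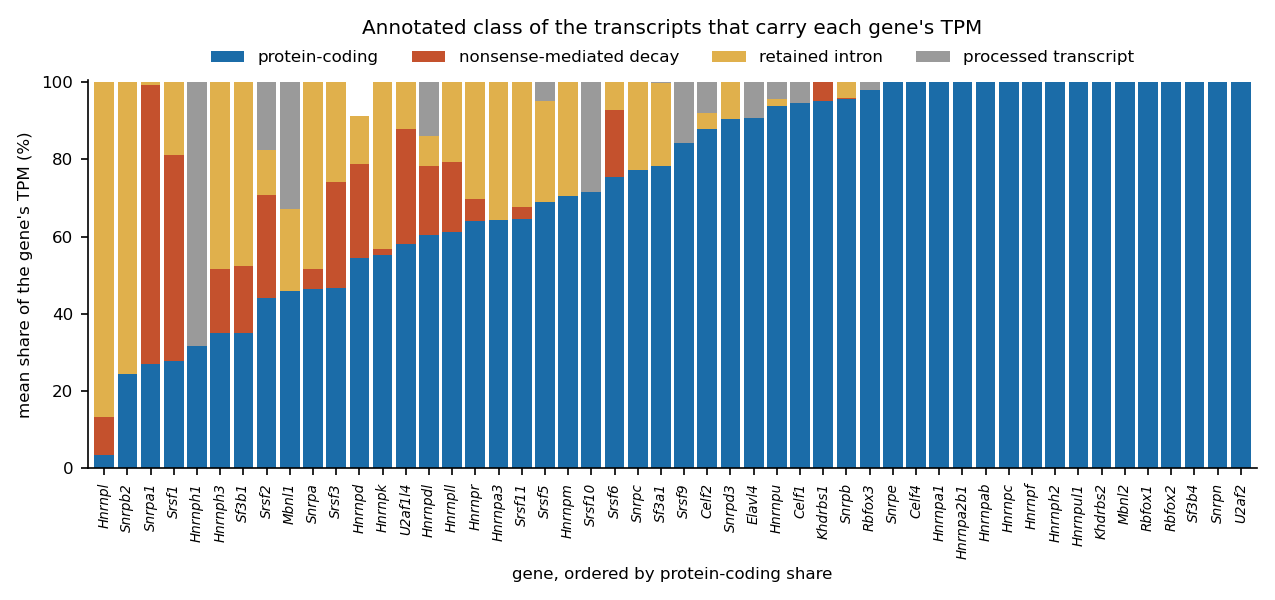
Mean share of each gene's TPM (%) by annotated transcript class for the 50 genes with a mean of at least 10 TPM and at least 2 transcripts, ordered by coding share. Hnrnpl is at the left with 3.39% coding, and Snrpn, Mbnl2 and Rbfox1 are among those with 100%. The gap above Hnrnpd is a transcript without a matched class.

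In 5 of the 50 genes (10%) the same transcript led in all 12 libraries, close to the background of 12.6% of 4715 genes. They were Snrpn, Snrpe, Snrpb, Hnrnpa1 and Hnrnpul1, all with a coding transcript. Among the neuronal genes, Mbnl2-202 led in 11 libraries, Celf4-201 in 10 and Rbfox2-202 and Rbfox1-201 in 9 each. For Rbfox1, Rbfox1-201 (4084 bases) was above 0 in all 12 libraries at 20.0 ± 17.4 TPM, while Rbfox1-202 (1191 bases) had the higher mean of 27.0 ± 43.5 TPM from 6 libraries.

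Variation between libraries was set against that of genes of the same abundance. edgeR's quasi-likelihood fit tested 76 of the 79 genes and called 0, against a background of 0.0144% (2 of 13899 genes), at an adjusted p of at most 0.05. With so few calls among all genes, the 0 says little of the splicing genes. Unadjusted, 1 of the 76 passed 0.05, against 95 of all 13899 genes. It was Srsf2 (p = 0.0396, adjusted p = 0.773 by edgeR), whose quasi-dispersion, the quantity tested, was 3.53 times the trend. Snrpn was next (3.23 times, adjusted p = 0.773 by edgeR). Hnrnpl and Hnrnpm had among the smallest ratios to the trend, 0.15 and 0.127. The median ratio was 1.01 for the 76 genes and 1.20 for all. By the coefficient of variation (SD over mean of the TPM), the 63 genes with a mean of at least 10 TPM had a median of 0.852 and all 6013 such genes 1.17. Set against genes of similar mean TPM, 40 of the 63 lay below the running median, where 2990 of 6013 do.

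The other genes of the pathway were also detected, with median levels of 35.7 TPM for the splicing list and 18.3 TPM for the decay list. Of 70 further spliceosome and splicing regulator genes listed, 69 had a mean of at least 1 TPM, 57 of at least 10 TPM, and 23 had at least 50 counts in all 12 libraries. Over all protein-coding genes the shares at these limits were 49.0%, 28.0% and 6.98%. The 70 genes summed to 4322 ± 640.9 TPM. The highest were Lsm6, of the ring bound to U6 RNA, at 466.7 ± 263.5 TPM, the helicase gene Ddx5 at 233.7 ± 125.4, the SR protein kinase gene Clk1 at 174.9 ± 154.5, Snrnp27 of the tri-snRNP at 171.1 ± 163.7 and Lsm7 at 158.0 ± 68.9 TPM. Srrm3, a neuronal microexon regulator, was the lowest at 0.111 ± 0.174 TPM. Of 15 genes of nonsense-mediated decay and the exon junction complex, all had a mean of at least 1 TPM, 11 of at least 10 TPM, and 2 had at least 50 counts in all 12 libraries. The background shares are again 49.0%, 28.0% and 6.98%. Eif4a3 (117.0 ± 117.7 TPM), Magoh (90.2 ± 62.1), Upf3b (45.5 ± 32.1) and Magohb (31.0 ± 51.8) were among the highest and Smg6 (5.50 ± 10.6), an endonuclease of the pathway, the lowest. Upf1, its central helicase, had 12.2 ± 4.53 TPM, with 4.05 TPM in its lowest library and 20.9 in its highest.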

How the data were processed

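The 12 Smart-seq libraries are technical replicates of 1 pool. Their gene and transcript tables give expected counts, TPM and FPKM as the deposited values, per the file headers. Text deposited beside them names mm10 and GENCODE M4. The aligner, the quantifier and the strand: not given in the sources used here. GENCODE M21, on the same assembly, supplied symbols, classes, coordinates and sequences, and 42462 of 43346 gene identifiers matched.

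Related genes were paired within each library on log2(TPM + 1), if at least 1 of them had a mean of 1 TPM or more. The 12 ratios were tested by flipping their signs in all 4096 ways (exact, two-sided), with Benjamini-Hochberg adjustment over 36 pairs at 0.05. Variation was tested with edgeR 4.0.16 in R 4.3.3 on expected counts rounded to whole numbers (mean count 5 or more): TMM, a quasi-likelihood fit of an intercept, and an upper-tail F test against the trend. This was tested on simulated data. The running median of the coefficient of variation spans 201 genes.

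Named are every gene of families with at most 6 members, the 5 highest and 2 lowest of larger families, all paired genes, genes with no count or a non-coding leading transcript, and the 5 highest and the lowest of 2 pathway lists. An item that this rule takes is not reported here. Other genes named (such as Upf1, Sf3a1, Hnrnpu and Hnrnpm) were picked after their values were seen. Members, lists and pairs were chosen with earlier results of these data known. Gene totals of 13694551 to 24108916 counts set the precision, and 3 counts is the limit for a gene with none. PCR reads without molecular identifiers are not independent molecules. Pseudocounts, units, filters, transcript classes and left-out libraries were varied.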

Additional observations from a re-analysis of the deposited data

How the results depend on the processing

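No paired analysis was possible because the 12 libraries form 1 group, so their numbers pair no groups (genes were compared within libraries). The summed level of the 79 genes was 6752 TPM after TPM were rescaled over annotated genes, which leaves out spike-ins and unnamed features. Detection in all 12 libraries counted 45 genes at 1 count in place of 50. Of 8 genes with a mean of at least 100 TPM, 2 had the same leading transcript in all 12 libraries. The median coding share was 62.2% in those 8 genes. Over the 50 genes it was 87.2% by estimated counts, and 79.6% to 85.6% with each library left out in turn.

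The number of pairs that differ was 0 in libraries 1 to 6 and 0 in libraries 8 to 13, where 6 libraries allow no adjusted p under 0.05 unless most pairs reach the smallest p. All 16 pairs kept their direction in both. Leaving out each library in turn gave 14 to 19 pairs, of which 14 to 16 were among the 16. Where a pair above is said to pass without 1 library, that library held the ratio furthest against the mean. Leaving it out lowers p by construction, so such a pass is no separate support. CPM, which does not correct for length, gave 22 pairs: all 16, and Rbfox3 to Rbfox2 (-2.59), Hnrnpdl to Hnrnpd (2.82), Elavl3 to Elavl4 (2.92), Mbnl2 to Mbnl1 (1.42) and Hnrnpa2b1 to Hnrnpa1 (1.54) and Hnrnpa3 (1.72). In coding transcripts alone 20 pairs differed, 15 of the 16 among them. The cause of these shifts was not tested. Variation between libraries called 0 of the splicing genes by edgeR under all 15 alternatives, with 0 to 2 at an unadjusted p of at most 0.05. Among all genes tested, 83 to 183 reached that unadjusted p.

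Signs turned for 1 pair that differed, Hnrnpl to Hnrnpll (-0.39 in coding transcripts), and otherwise among pairs that had not passed. With a pseudocount of 10, Rbfox1 to Rbfox2 gave 0.10 and Srsf1 to Srsf9 0.0018. With CPM, Elavl4 to Elavl1 gave -0.43, Hnrnph1 to Hnrnph2 -0.58 and Srsf1 to Srsf9 0.14. In coding transcripts Hnrnph1 to Hnrnph2 gave -1.51, and this passed. In libraries 1 to 6 Rbfox3 to Rbfox1 gave 0.059, Snrpa to Snrpb2 0.38 and Srsf1 to Srsf9 0.52. In libraries 8 to 13 Celf4 to Celf1 gave 0.74, Hnrnph1 to Hnrnph2 -1.13 and Srsf3 to Srsf7 1.50. With a library left out, Elavl4 to Elavl1 gave -0.25 to 0.80, Srsf3 to Srsf7 -0.57 to 0.32 and Rbfox1 to Rbfox2 -0.56 to 0.097. The Nova1 to Nova2 ratio passed in coding transcripts, where Nova2 loses a transcript that could not be matched. The 5 genes with a mean under 1 TPM had counts in at most 2 libraries, and whether depth or the RNA input limits them was not tested.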
